A study of Mus musculus with 2 samples.

Results

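Immediate-early genes are switched on within minutes of a stimulus, without new protein synthesis, and most of them encode transcription factors that start a later wave of gene expression. In B cells, engagement of the antigen receptor is a well-known inducer of the Egr and Nr4a families, while AP-1 genes respond to many stimuli, among them the warming, cutting and enzyme digestion that free cells from a solid tissue. Their products are short-lived, and several of the genes or their targets encode phosphatases and inhibitors that end the signal.

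The 10 genes described here were chosen by name out of the 32228 genes of the count matrices: the AP-1 subunits Fos, Fosb, Jun and Junb, the zinc-finger factors Egr1 and Egr3, the orphan nuclear receptor Nr4a1, the CREB/ATF family factor Atf3, the mitogen-activated protein kinase phosphatase Dusp1, and Ier2. They were measured by droplet single-cell RNA sequencing in CD45+ 7-AAD- (live leukocyte) cells sorted from the colonic lamina propria of C57BL/6 mice aged 8-10 weeks with colitis caused by dextran sulfate sodium, a polymer that damages the epithelium. One library was labelled WT and the other Ring1AKO, from mice lacking Ring1A, a catalytic subunit of polycomb repressive complex 1, and each held cells pooled from 5 mice. Colons of both groups went through 12 min in EDTA and 60 min of digestion with type IV collagenase and DNase I at 37 °C. With 1 library per group no difference between the libraries has a replicate check, and genotype, pool and library preparation cannot be told apart. The values below ask where the members were high among the immune classes that shared this digestion, and whether a class differed between the libraries.

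The WT library held 6005 kept cells and the Ring1AKO library 7918, of which 4274 and 5924 fell into 10 classes gated by marker genes. B-like cells numbered 1096 and 3449, plasma-like cells 746 and 851, and monocyte-like cells 882 and 269, and the other classes had between 59 and 414 cells per library. The B-like cells had a median of 4098 and 4278 unique molecular identifiers (UMIs, counted molecules) per cell, against 24460.5 and 23189 in plasma-like cells. The summed level of the 9 B cell markers was 6348 and 6782 CPM (UMIs per 1000000 UMIs of the class) in B-like cells and between 17.3 and 64.6 CPM in the classes other than plasma-like cells, where it was 807 and 1092 CPM. The B-like gate used these same markers, so this contrast is largely set by the gate. The 7 CD4 T cell markers summed to 1102 and 1063 CPM in ILC2-like and 952 and 1043 CPM in NK-like cells. In CD4 T-like cells they summed to 3956 and 4898 CPM. Only 11 barcodes were shared by the kept cells of the libraries, and 0 of them had the same class in both. Ring1 itself gave 13.4 CPM over all kept WT cells and 11.8 CPM in the library labelled Ring1AKO, so its 3′ counts do not check the label; a 3′ tag does not show a disruption upstream of it.

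All 10 members had at least 1 UMI in every class and library, and 9 of 10 had at least 50 UMIs over both libraries in every class. The exception was Egr3, which fell under 50 in CD8 T-like and NK-like cells. Egr3 lies at chr14:70077203-70082614 and Fos at chr12:85473890-85477273 in the GENCODE annotation of GRCm38. RefSeq promoters on GRCm38.p6 were at hand for 7 of the 10 members, and not for Egr1, Egr3 and Ier2. Those of Fos, Dusp1 and Nr4a1 are shown because the genes stand for 3 patterns across the classes: high in every class, highest in myeloid cells, and high in B and innate lymphoid cells. Each is the 250 bases before the transcription start, 5′ to 3′ on the strand of the gene, with the TATA box (TATAAA), the cAMP response element (CRE, TGACGTCA) and its core (TGACG, or CGTCA where it lies on the other strand) in capitals; a full CRE also holds the core on both strands.

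Fos, chr12:85473640-85473889, plus strand: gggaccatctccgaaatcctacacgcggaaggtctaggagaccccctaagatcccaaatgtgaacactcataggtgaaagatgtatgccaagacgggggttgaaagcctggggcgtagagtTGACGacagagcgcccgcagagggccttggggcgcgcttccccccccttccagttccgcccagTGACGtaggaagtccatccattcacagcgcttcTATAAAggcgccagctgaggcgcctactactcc
Dusp1, chr17:26508473-26508722, minus strand: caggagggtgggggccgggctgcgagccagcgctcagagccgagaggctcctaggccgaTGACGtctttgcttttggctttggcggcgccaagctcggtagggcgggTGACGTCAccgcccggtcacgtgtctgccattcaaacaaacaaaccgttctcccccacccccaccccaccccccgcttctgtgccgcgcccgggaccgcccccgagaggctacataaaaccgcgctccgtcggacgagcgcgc
Nr4a1, chr15:101266596-101266845, plus strand: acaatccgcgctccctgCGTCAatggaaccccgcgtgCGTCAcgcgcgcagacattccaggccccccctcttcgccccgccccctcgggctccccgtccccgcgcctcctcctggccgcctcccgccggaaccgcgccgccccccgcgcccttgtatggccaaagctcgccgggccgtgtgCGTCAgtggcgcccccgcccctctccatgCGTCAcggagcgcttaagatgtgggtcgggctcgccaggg

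The CRE core stood in 6 of the 7 members' promoters, and in 17.8% of all 32851 promoters of the same length. The full CRE was in that of Dusp1 (1.55% of all promoters), and the TATA box in that of Fos (12.4%). Searches on both strands for the AP-1 site (TGANTCA, 6.75% of all promoters), the EGR site (GCGTGGGCG, 0.536%) and the CArG box bound by serum response factor (1.47%) found these letters in 0 of the 7 windows. Bases outside the windows, and the promoters of Egr1, Egr3 and Ier2, were not searched.

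The AP-1 members were found in every class of both libraries, at 199 CPM or more. Fos, whose protein pairs with Jun proteins, gave 788 CPM (95% Poisson interval 764 to 813) in B-like cells of the WT library and 785 CPM (771 to 798) in the Ring1AKO library. In the other 9 classes Fos ran from 536 CPM in NK-like to 1907 CPM in ILC2-like cells (WT), and from 437 CPM in Treg-like to 1703 CPM in ILC2-like cells (Ring1AKO). B-like cells thus stood inside the range of the other classes, above 4 of 9 in each library, and their Ring1AKO level overlapped in its interval with those of NK-like and CD4 T-like cells. All intervals here cover counting error only.

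Fosb, another Fos family subunit, gave 698 and 582 CPM in B-like cells of the WT and the Ring1AKO library, between 414 and 1821 CPM in the other WT classes and between 314 and 1390.2 CPM in the other Ring1AKO classes. ILC2-like cells were highest for Fosb in both libraries. Jun, the partner of Fos in the classical AP-1 dimer, gave 645 and 577 CPM in B-like cells, above 7 and 8 of the 9 other classes, with the lowest level in neutrophil-like cells (283 and 199 CPM). Junb gave 1257 and 1564 CPM in B-like cells and was lower only in dendritic-like and plasma-like cells (WT) or in plasma-like cells (Ring1AKO).

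Egr3 was the member with the most uneven level. This factor, which works with other Egr proteins in lymphocyte activation, gave 383 CPM (366 to 400) in WT and 288 CPM (280 to 296) in Ring1AKO B-like cells. Its level in the other classes ran from 3.39 CPM in monocyte-like to 66.1 CPM in neutrophil-like cells (WT) and from 7.00 CPM in Treg-like to 50.2 CPM in ILC2-like cells (Ring1AKO). The B-like level was 5.79 and 5.73 times the next highest class, with no overlap of intervals.

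Egr1 was high in B-like and neutrophil-like cells. It gave 425 CPM (408 to 444) in B-like and 427 CPM (387 to 469) in neutrophil-like cells of the WT library, and 314 CPM (305 to 323) and 342 CPM (310 to 376) in those of the Ring1AKO library, with overlapping intervals in each. In B-like cells 52 of 1096 (WT) and 147 of 3449 cells (Ring1AKO) held at least 50% of its UMIs. In Ring1AKO neutrophil-like cells 1 cell held 80 of the 420 UMIs. Without the top cell of each class, the Ring1AKO levels were 281 CPM in neutrophil-like and 309 CPM in B-like cells. Plasma-like cells gave 176 and 107 CPM, and the T, NK, monocyte and dendritic classes lay between 36.8 and 84.2 CPM. The WT ILC2-like level of 254 CPM rested on few cells: 2 of 224 cells held at least 50% of its 293 UMIs, and 32.8% came from 1 cell.

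Nr4a1, a rapid reporter of antigen receptor signalling in lymphocytes, was highest in ILC2-like cells (1550.4 and 1636 CPM), followed by B-like cells (897 and 976 CPM) and NK-like cells (828 and 578 CPM). It was lowest in plasma-like cells, at 56.4 and 116 CPM. Atf3 and Dusp1 were low in B-like cells and highest in neutrophil-like or monocyte-like cells. Other classes shared part of this. Atf3 was lower still in CD8 T-like (16.4 and 11.1 CPM) and Treg-like cells (35.1 and 32.3 CPM). In the Ring1AKO library it was also lower in CD4 T-like cells (38.9 CPM). Dusp1 was lower still in plasma-like cells (168 and 150 CPM). Dendritic-like cells gave 238 and 212 CPM for Atf3. ILC2-like cells gave 230 and 182 CPM for Atf3 and 1050 and 1047 CPM for Dusp1. Atf3 gave 53.9 and 61.1 CPM in B-like cells, against 464 and 164 CPM in neutrophil-like and 443 and 220.5 CPM in monocyte-like cells. Dusp1 gave 258 and 292 CPM in B-like cells, against 5401 and 3559.7 CPM in neutrophil-like and 1845 and 1958 CPM in monocyte-like cells. Ier2 was the most even member with Jun and Fos, from 127 to 383 CPM (WT) and from 143 to 505 CPM (Ring1AKO), and in B-like cells it gave 383 and 495 CPM.

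**Figure D1:**
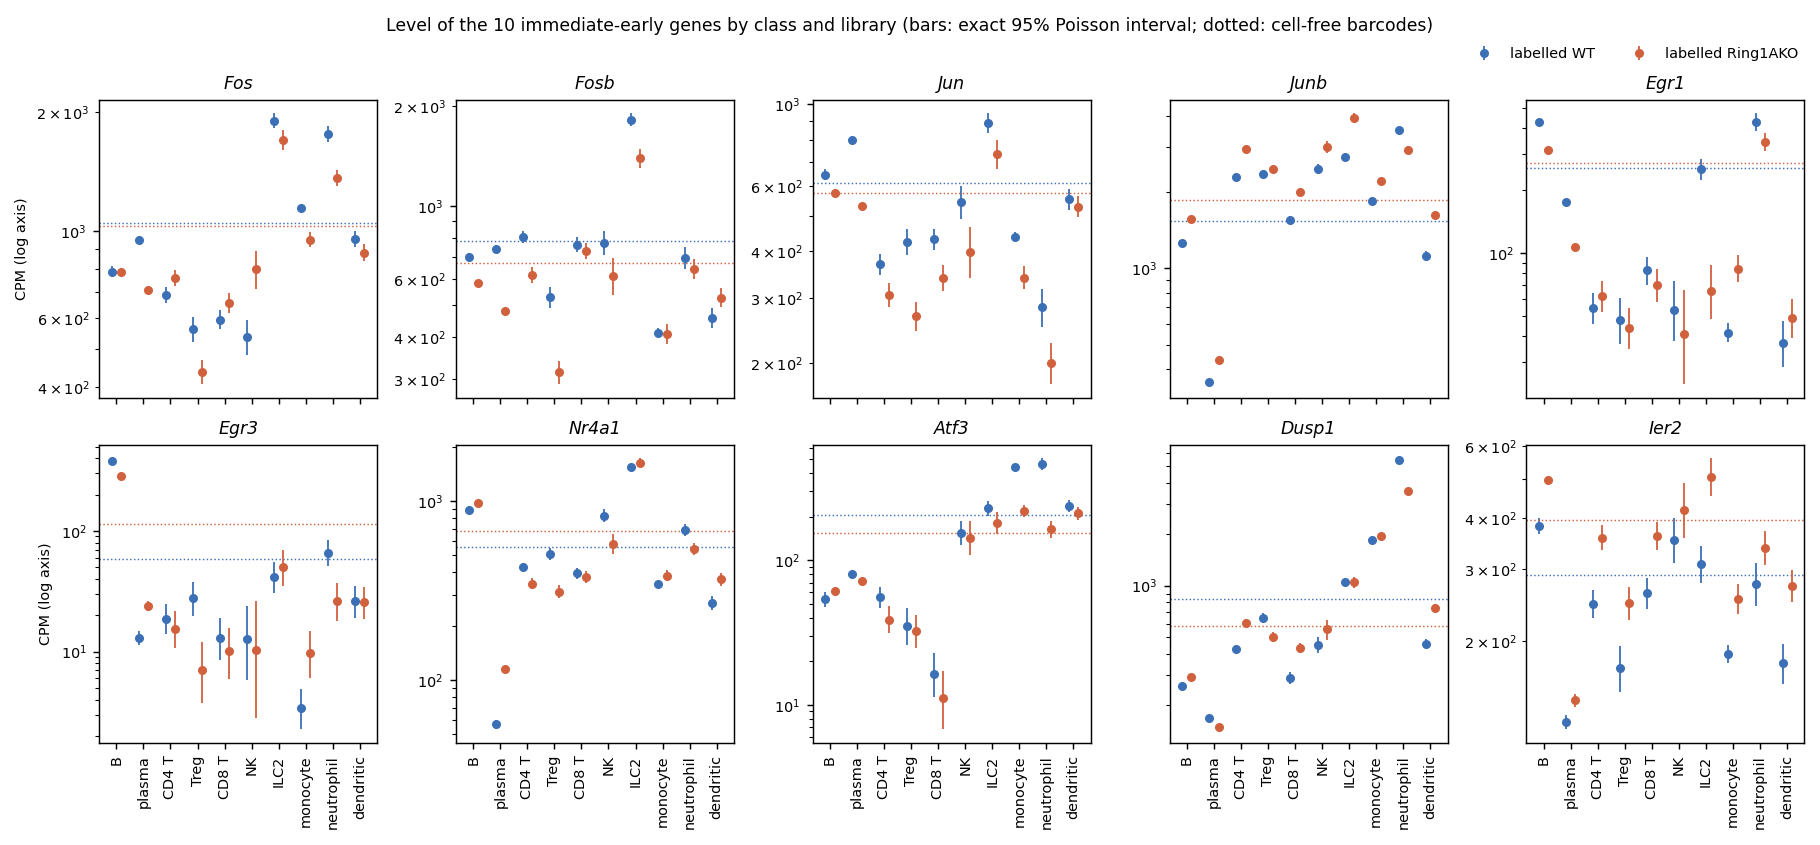
Level of each member in CPM (log axis, scaled per gene) in the 10 classes of the library labelled WT (blue) and that labelled Ring1AKO (orange), with exact 95% Poisson intervals as bars and the level in cell-free barcodes as dotted lines. Egr3 in B-like cells (383 and 288 CPM) stands above every other class, whereas Fos in B-like cells (788 and 785 CPM) lies inside the range of the others.

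Summed over the 10 members, B-like cells gave 5787 and 5934 CPM, close to the middle of the classes. The difference to the median of the other 9 classes was 0.11 (WT) and -0.03 (Ring1AKO) on the log2 scale, and it changed sign in the WT library to -0.08 when immunoglobulin genes, which fill much of the plasma-like total, were left out of the denominator. Neutrophil-like cells (13560 and 10105 CPM) and ILC2-like cells (10791 and 11245 CPM) had the highest sums, and plasma-like cells the lowest (3468 and 2766 CPM).

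By member, 3 of 10 were at least 2-fold higher in B-like cells than in the median of the other classes in both libraries, where 13.1% (WT) and 13.7% (Ring1AKO) of all genes tested passed the same fold. They were Egr3 (log2 difference 4.28 and 4.13), Egr1 (2.95 and 2.23) and Nr4a1 (1.07 and 1.38). Of the members, 1 (WT) and 2 (Ring1AKO) were at least 2-fold lower, with 11.2% and 10.2% of all genes: Atf3 (-1.51 and -1.21) in both and Dusp1 (-0.83 and -1.05) in the Ring1AKO library. These lower calls did not hold throughout: with 1 marker more per gate Atf3 was -0.95 and -0.53 and Dusp1 -0.87 (Ring1AKO), and as a mean over cells Dusp1 was past 2-fold in the WT library too (-1.12). The AP-1 genes Fos (-0.27 and -0.02) and Fosb (-0.09 and -0.08) were near 0, Junb was lower (-0.86 and -0.66), and Jun (0.56 and 0.76) and Ier2 (0.63 and 0.55) were higher. The members' median was 0.23 and 0.26, beside 0.13 and 0.16 over all genes tested.

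Related genes outside the 10, picked as examples after their values were seen, also differed among themselves. Among other immediate-early genes, Myc, a growth regulator, was 3.46 and 3.16 higher in B-like cells on the log2 scale, Egr2 2.09 and 2.71, and Klf2, a quiescence factor, 1.27 and 1.09, each above all 9 other classes. Fosl2 (-2.86 and -2.49) and Nr4a3 (-1.94 and -1.71) were lower. The median over the 21 genes of that list was -0.01 and 0.03. Of the feedback genes, the phosphatase Dusp2 (1.40 and 1.13) and the NF-κB inhibitor Nfkbid (1.27 and 1.79) were higher and Tnfaip3 (-2.51 and -2.59) and Nfkbia (-1.68 and -1.63) lower. The median over 17 feedback genes was -0.45 and -0.56. The inducible chaperones Hspa1b (1.92 and 2.43) and Hspa1a (1.89 and 2.16), known heat-shock genes, were also highest in B-like cells, and the median over 14 heat-shock genes was 1.07 and 1.10. Genes of the B cell activation list differed among themselves, and the median over all 24 was -0.31 and -0.35. At least 2-fold higher were 9 and 9 of them, beside 13.1% and 13.7% of all genes tested. At least 2-fold lower were 10 and 9, beside 11.2% and 10.2%. Cd83 (3.15 and 3.09) and Ccr7 (2.79 and 2.43) were higher, and Cd69 was near the others (0.31 and 0.58). The kinase Pim1 was lower (-1.47 and -1.49).

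The share of cells carrying a member separated Egr3 from Fos in the same way. Each cell was thinned to 1000 UMIs, so that shares of cells with at least 1 UMI could be compared. Egr3 was found in 26.4% of WT B-like cells (exact 95% binomial interval 23.8 to 29.1%) and 19.8% of Ring1AKO B-like cells (18.5 to 21.1%), and before thinning in 56.2% and 46.5%. Elsewhere it was found in between 0.454% (monocyte-like, WT, 2.72% before thinning) and 6.62% (ILC2-like, Ring1AKO) of cells, although monocyte-like cells were deeper, with a median of 9928.5 UMIs in the WT library. Before thinning the shares outside B-like cells were larger. The highest were 23.7% in dendritic-like and 20.5% in neutrophil-like cells (WT), and 22.4% in plasma-like and 19.1% in ILC2-like cells (Ring1AKO). Free RNA at the share that the IgA heavy chain gene Igha sets (3.00% and 3.98% of UMIs) would give Egr3 levels of 1.74 and 4.57 CPM.

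Fos was found in 43.0% (40.0 to 46.0%) and 45.0% (43.4 to 46.7%) of thinned B-like cells, within the range of the other classes, from 32.5% to 66.1% (WT) and from 33.0% to 65.4% (Ring1AKO). Nr4a1 was found in 44.8% and 47.8% of B-like cells, 57.1% and 69.9% of ILC2-like cells and 57.0% and 33.9% of NK-like cells. In plasma-like cells it was found in 8.58% and 18.8% (46.0% and 63.3% before thinning, against 74.8% and 78.3% in B-like cells). For Egr1 the neutrophil-like share was 30.7% (24.6 to 37.3%) and 20.2% (15.2 to 25.9%), above the B-like share of 18.0% (15.7 to 20.4%) and 14.1% (13.0 to 15.3%), without overlap of intervals in the WT library and with overlap in the Ring1AKO library. In ILC2-like cells Egr1 was found in 4.02% and 2.94% of cells, low beside its WT level.

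**Figure D2:**
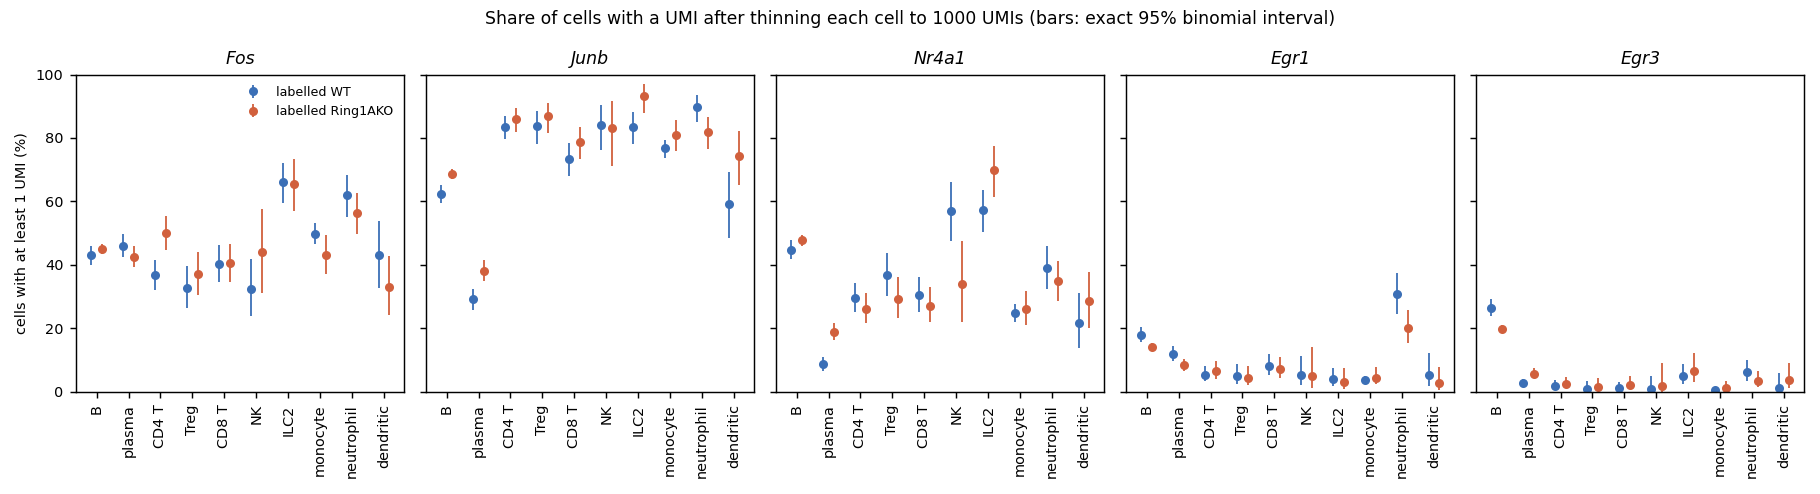
Share of cells (%) with at least 1 UMI of 5 members in each class after thinning every cell to 1000 UMIs, for the library labelled WT (blue) and that labelled Ring1AKO (orange), with exact 95% binomial intervals. Egr3 is found in 26.4% and 19.8% of B-like cells and in at most 6.62% of any other class, while Fos is found in 32.5% or more of the cells of every class.

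A thinned B-like cell held on average 3.26 (WT) and 3.27 (Ring1AKO) of the 10 members. None of the members was found in 6.39% and 4.64% of B-like cells, and 5 or more in 26.0% and 24.2%. ILC2-like cells (4.05 and 4.40 members) and neutrophil-like cells (4.37 and 3.90) held more, and plasma-like cells fewer (2.23 and 2.20). The plasma-like value holds for thinned cells, where immunoglobulin genes fill much of the total. Before thinning most members were found more often in plasma-like than in B-like cells. Fos, for example, was found in 92.0% and 89.8% against 74.2% and 78.1%. Exceptions were Egr3, Nr4a1 and, in the Ring1AKO library, Junb.

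Within B-like cells, the Egr and Nr4a genes were found together more than Jun was with any of them. Cells with both Egr1 and Egr3 were 2.21 times (WT) and 2.62 times (Ring1AKO) as many as the product of the shares gives, those with Egr1 and Nr4a1 1.85 and 1.72 times, and those with Egr1 and Fosb 1.73 and 1.72 times. The same ratio was 0.85 and 0.97 for Jun with Egr1, 0.89 and 0.84 for Jun with Egr3, and 0.84 and 0.91 for Egr3 with Dusp1. Over all 45 pairs the median ratio was 1.21 and 1.13, and these are descriptions within 2 pools of cells. Fos was found with Egr1 more often as well: among B-like cells with Fos, 25.7% (21.8 to 29.9%) of WT cells held Egr1, against 12.2% (9.70 to 15.0%) of those without, and 18.4% (16.5 to 20.4%) against 10.7% (9.30 to 12.1%) in the Ring1AKO library. Joint detection of Egr1 with Nr4a1 was not particular to B-like cells: in plasma-like cells the ratio was 2.49 (WT) and 2.77 (Ring1AKO). There Jun with Egr1 gave 1.73 and 1.58.

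B-like cells were then divided by whether the thinned cell held a UMI of Egr1 or Egr3, and separately by Fos, divisions chosen after the levels above were known. Egr-positive cells were 371 of 1096 (33.9%) and 917 of 3449 (26.6%), and Fos-positive cells 471 and 1553. Depth was alike across the division by Egr genes, with a median of 3987 UMIs with and 4140 without in the WT library, and 4460 and 4204 in the Ring1AKO library. The median mitochondrial share was 2.54% with and 2.36% without (WT), and 2.97% and 2.77% (Ring1AKO).

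Cells with an Egr UMI had more B cell activation RNA. The summed level of 24 activation genes was 9698 CPM in cells with and 5754 CPM in cells without an Egr UMI (WT), a log2 difference of 0.75 (0.69 to 0.82), and 10093 against 5879 CPM (Ring1AKO), 0.78 (0.74 to 0.82). Of the activation genes with at least 50 UMIs, 12 of 19 (WT) and 18 of 22 (Ring1AKO) were at least 1.5-fold higher, where 6.23% and 5.21% of all genes tested were higher and 5.96% and 6.97% lower by that fold. The 1 activation gene past it in the other direction was Batf (-0.61, Ring1AKO), an AP-1 family factor. Examples are Egr2 (1.94 and 2.41), the chemokine Ccl4 (1.87 and 1.29), the survival factor Bcl2a1b (1.45 and 1.08), the kinase Pim1 (1.35 and 1.07), Myc (1.31 and 1.09) and the NF-κB subunit Rel (0.61 and 0.86). Not all followed: Ccr7, which guides cells to lymphoid tissue, was 0.30 and -0.03, and the receptor Cd40 -0.03 and -0.25. Genes of the list that are themselves immediate-early genes (Egr2, Nr4a3 and Myc) are counted in both lists, and in the counts and sums given here. The gene lists were chosen with earlier results of these data known, so these counts describe the cells and are not an independent test.

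The members themselves divided. Nr4a1 (1.68 and 1.66), Fosb (1.17 and 1.33), Ier2 (1.32 and 1.06) and Fos (1.05 and 0.78) were higher in cells with an Egr UMI, while Jun (-0.22 and -0.38) was lower and Dusp1 was -0.20 and 0.06. Of the 8 members other than Egr1 and Egr3, 6 (WT) and 5 (Ring1AKO) were past 1.5-fold higher and 0 lower. Feedback genes were higher in sum (0.69 and 0.79), with 7 of 15 (WT) and 7 of 17 (Ring1AKO) past 1.5-fold higher, among them Nfkbid (1.42 and 1.42), Gadd45b (1.20 and 1.57), Nfkbia (1.14 and 1.27) and Dusp2 (1.21 and 1.11). Past 1.5-fold lower were 0 of 15 and 2 of 17 feedback genes, Dusp6 (-1.43) and Socs1 (-0.59) in the Ring1AKO library. Heat-shock genes were lower in sum (-0.40 and -0.46), with Hspa1b at -0.72 and -0.86 and Hspa1a at -0.67 and -0.86. Resting B cell genes hardly differed (0.07 and -0.04), and the 9 B cell markers were slightly lower (-0.12 and -0.15).

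Dividing the same cells by Fos gave smaller differences in the activation, feedback and heat-shock lists, and a larger one in resting B cell genes (0.12 and 0.12). Other immediate-early genes hardly separated the divisions in the WT library, at 0.32 (0.26 to 0.38) by Fos and 0.36 (0.29 to 0.42) by Egr genes. In the Ring1AKO library they were 0.21 (0.17 to 0.24) by Fos and 0.31 (0.28 to 0.35) by Egr genes. Summed activation genes were 0.27 (0.20 to 0.33) and 0.18 (0.14 to 0.21) higher in cells with Fos, feedback genes 0.30 and 0.21, and heat-shock genes -0.09 and -0.18. At least 1.5-fold higher were 1 of 19 activation genes in the WT library (Ccl4, 1.44, but -0.09 in the Ring1AKO library) and 0 of 22 in the Ring1AKO library, where 4.23% and 2.16% of all genes tested passed, and 0 were lower by that fold, where 3.86% and 2.04% were. The other members were higher by 0.79 and 0.43 in sum, with 8 of 9 (WT) and 2 of 9 (Ring1AKO) past 1.5-fold higher. The division by Egr genes gave 0.85 and 0.81 for the sum of its other members, with overlap of intervals in the WT library only. Dusp1 was past that fold in the WT library (0.71) and within it in the Ring1AKO library (0.46). The intervals of the summed activation genes, Egr2, Nr4a3 and Myc among them, did not overlap between the divisions in either library. The size of either difference depends on how many cells a gene marks.

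**Figure D3:**
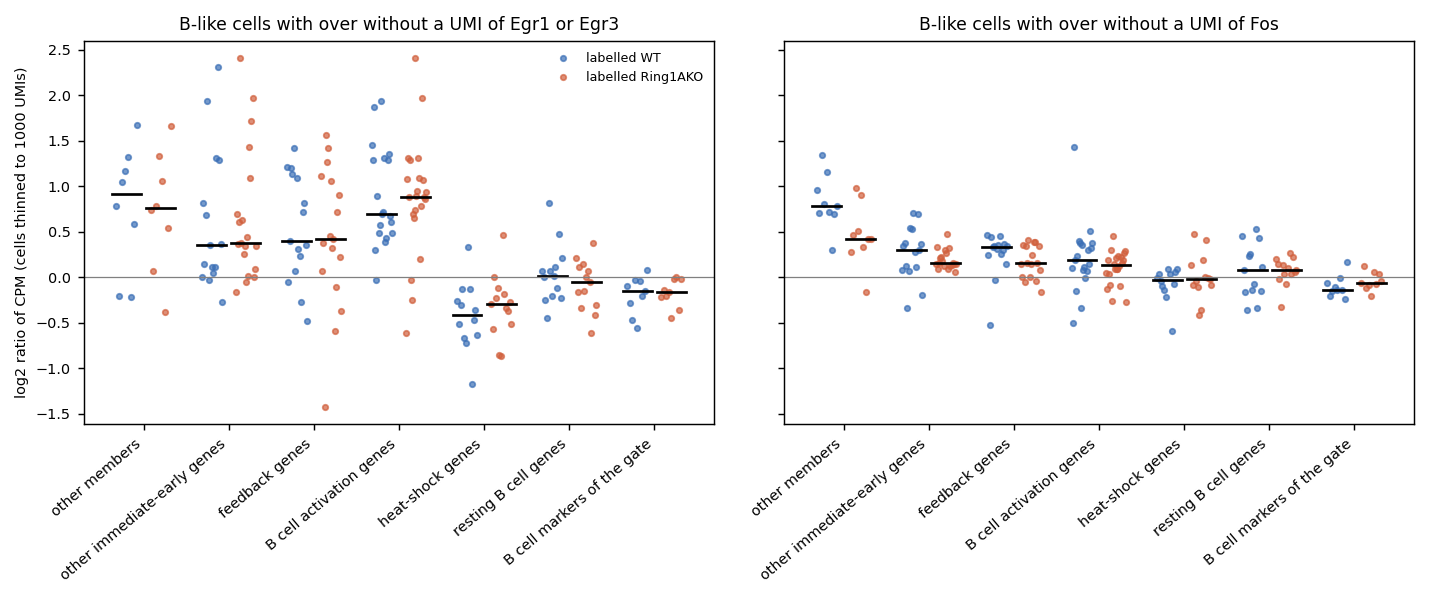
Log2 ratio of the level in B-like cells with over without a UMI of Egr1 or Egr3 (left) and with over without Fos (right), after thinning to 1000 UMIs; each point is a gene with at least 50 UMIs, grouped by list, for the library labelled WT (blue) and that labelled Ring1AKO (orange), and black lines are list medians. Activation genes have medians of 0.70 and 0.88 on the left and of 0.19 and 0.13 on the right, and heat-shock genes have medians below 0 on the left (-0.42 and -0.29).

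Between the libraries, the summed members of B-like cells differed little, by 0.04 (0.02 to 0.06) as log2 of Ring1AKO over WT, and from -0.04 to 0.04 over the 9 other ways of processing. None of the 10 members was past 1.5-fold in B-like cells in either direction, where 3.78% of the 9646 genes tested were higher and 15.3% lower by that fold. Their median of 0.06 stood beside -0.15 over all genes tested, a shift that most genes of the class share. Relative to 0, Egr1 (-0.44, interval -0.51 to -0.37), Egr3 (-0.41, -0.49 to -0.34), Fosb (-0.26) and Jun (-0.16) were lower in the library labelled Ring1AKO, Jun by about as much as the median of all genes, and Ier2 (0.37, 0.30 to 0.44), Junb (0.32), Dusp1 (0.18) and Nr4a1 (0.12) higher. Fos (-0.01, -0.06 to 0.05) and Atf3 (0.18, -0.01 to 0.38) had intervals that held 0. The summed level of the haemoglobin genes Hbb-bs and Hba-a1, red cell markers, was 9.41 CPM in WT and 232 CPM in Ring1AKO B-like cells, and their part in these values was not tested.

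Some members differed in the same direction in nearly every class, where the median of all genes tested was below 0 in 10 of 10 classes, from -0.28 in plasma-like to -0.06 in ILC2-like cells. Ier2 was higher in the library labelled Ring1AKO in 10 of 10 classes, from 0.18 in plasma-like to 0.71 in ILC2-like cells, with 9 intervals above 0. Jun was lower in 10 of 10, from -0.67 in Treg-like to -0.07 in dendritic-like cells, with 9 intervals below 0. That is also the direction of the median gene, and in dendritic-like cells Jun lay above it (-0.17). Junb was higher in 9 of 10, with 8 intervals above 0, the exception being neutrophil-like cells (-0.26). Fosb was lower in 9 of 10, with 6 intervals below 0, the exception being dendritic-like cells (0.20). It lay above the median gene in CD8 T-like (-0.06, against -0.12) and monocyte-like cells (-0.01, against -0.18) too. Atf3 was also lower in 9 of 10, with 5 intervals below 0, the exception being B-like cells (0.18). Among the lower classes, Atf3 lay above the median gene in plasma-like cells (-0.18, against -0.28) and level with it in dendritic-like cells (-0.17 in each). It lay near the median gene in NK-like (-0.12, against -0.09) and Treg-like cells (-0.12, against -0.06), and further below it in the remaining lower classes. In cell-free barcodes, which held under 100 UMIs each, Ier2 gave 290.2 and 397 CPM, Jun 612 and 577 CPM and Junb 1540.1 and 1856 CPM, the same directions. Nr4a1 was higher in 5 classes and lower in 5.

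Calls by class were few, and the lower ones in plasma-like, neutrophil-like, ILC2-like and monocyte-like cells are read as values of single genes, since their number is not far from the share of all genes. In plasma-like cells Nr4a1 (56.4 and 116 CPM, log2 ratio 1.03) and Egr3 (13.0 and 23.9 CPM, 0.88) were past 1.5-fold higher and Egr1 (-0.72), Fosb (-0.62) and Jun (-0.59) past it lower, with 3.19% and 24.3% of all genes. The lower calls ended under some alternatives, with Egr1 at -0.44 after thinning and Fosb at -0.44 and Jun at -0.40 without immunoglobulin genes in the denominator. Summed B cell markers in the same cells were 807 CPM in WT and 1092 CPM in Ring1AKO, with 0 of 9 markers absent in either library, and their part in the Nr4a1 and Egr3 values was not tested. The 8 monocyte markers there summed to 2553 and 1785 CPM, the 4 epithelial markers to 216 and 96.3 CPM and the 3 fibroblast markers to 133 and 69.9 CPM, with 0 absent. Their part in the lower calls was not tested. Neutrophil-like cells had 0 members higher and 3 lower, where 10.3% and 19.7% of genes were: Atf3 from 464 to 164 CPM (-1.50), Egr3 from 66.1 to 26.0 CPM (-1.34) and Dusp1 from 5401 to 3559.7 CPM (-0.60). The Dusp1 call ended without the 5% deepest cells (-0.47). The summed members of this class fell by 0.42. Summed neutrophil markers were 20561 CPM in WT and 33670 CPM in Ring1AKO neutrophil-like cells, and the 3 fibroblast markers 5.01 and 400.2 CPM with 0 of them absent, and their part in these values was not tested.

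Monocyte-like cells had Egr3 (3.39 and 9.77 CPM, 1.52) and Egr1 (41.4 and 84.2 CPM, 1.02) higher and Atf3 (443 and 220.5 CPM, -1.01) lower, with 5.26% and 19.8% of genes past the fold. With 1 marker more per gate Egr1 was 0.38, within the fold. In the Ring1AKO library 5 of 269 cells held at least 50% of the 181 Egr1 UMIs, against 21 of 882 cells in WT. Without the top cell of each library Egr1 gave 39.5 (WT) and 71.4 CPM (Ring1AKO). It was found in 3.63% and 4.46% of thinned cells, and before thinning in 17.6% and 17.8%. Free RNA alone would give Egr3 1.74 and 4.57 CPM, and its part in the Egr3 ratio was not tested. In Treg-like cells 0 members were higher and 4 lower (11.8% and 17.8% of genes): Egr3, Fosb (-0.75), Nr4a1 (-0.71) and Jun (-0.67). All 4 calls ended under an alternative, with Fosb at -0.23 after thinning and Jun at -0.27 and Nr4a1 at -0.48 as a mean over cells. For Egr3 there (27.8 and 7.00 CPM, -1.99) 1 WT cell held 32 of the 38 UMIs, the level without that cell was 4.47 CPM, and the direction turned to 0.96 without the 5% deepest cells. ILC2-like cells had Ier2 higher (0.71) and Egr1 lower (254 and 66.0 CPM, -1.94), with 9.87% and 16.3% of genes; without the cell holding most of its UMIs in each library Egr1 gave 172 and 49.5 CPM, and with 1 marker more per gate the ratio was 0.69. In the same cells the 4 epithelial markers summed to 239 CPM in WT and 33.0 CPM in Ring1AKO, with 0 and 1 absent, and the 3 fibroblast markers to 179 and 5.74 CPM, with 0 and 1 absent, and their part in the Egr1 value was not tested. Dendritic-like cells had Dusp1 (0.69) and Ier2 (0.63) higher and 0 lower (5.84% and 18.6%), but Ier2 was 0.17 after thinning and Dusp1 0.54 as a mean over cells, both within the fold. In CD4 T-like, CD8 T-like and NK-like cells 0 members were past the fold, where 6.07%, 3.76% and 6.4% of genes were higher and 13.3%, 15.1% and 16.5% lower.

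**Figure D4:**
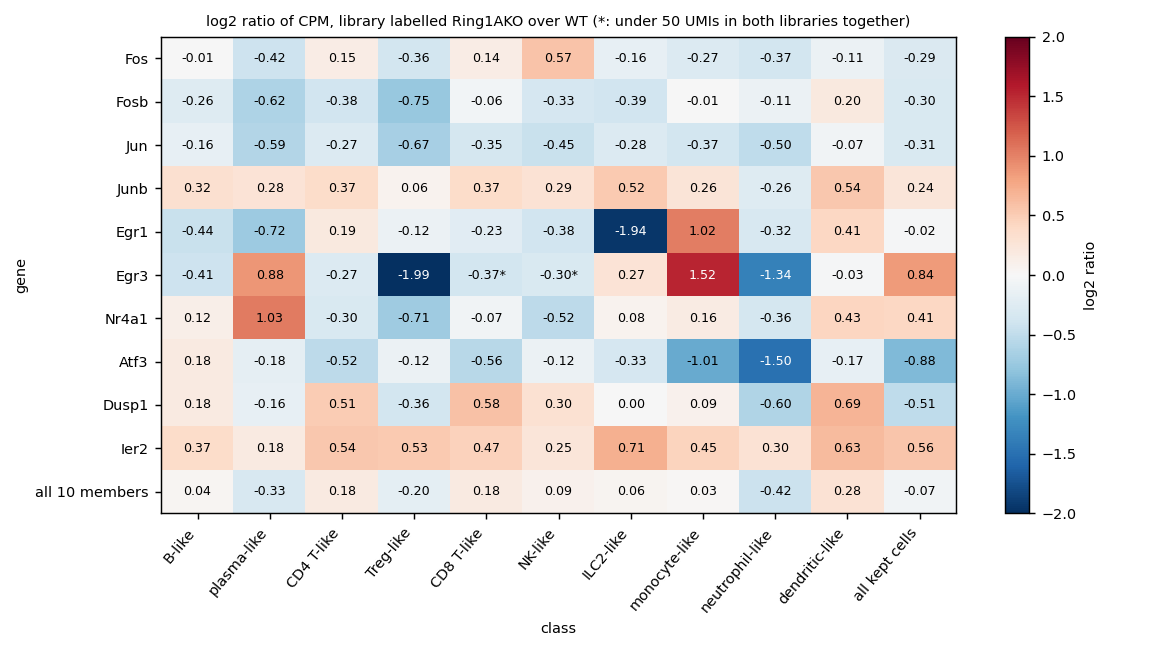
Log2 ratio of CPM, Ring1AKO over WT, for each member and their sum (rows) in each class and over all kept cells (columns), with red for higher and blue for lower in Ring1AKO and a star where both libraries together held under 50 UMIs. Ier2 is red and Jun blue in all 10 classes, and the sum of B-like cells is 0.04.

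The B-like companion genes gave context for the ratio in that class. Summed activation genes differed by 0.02, heat-shock genes by 0.02, resting B cell genes by 0.01, feedback genes by -0.01 and other immediate-early genes by 0.17. Within the lists, the highest and the lowest ratios were those of Ier3 (12.4 and 28.1 CPM, 1.18) and Ccnl1 (-0.36) among other immediate-early genes, Socs3 (0.85) and Dusp4 (109.6 and 55.7 CPM, -0.98) among feedback genes, Ccl4 (0.70) and Il2ra (-0.81) among activation genes, Bag3 (0.49) and Hspa5 (-0.45) among heat-shock genes, and Btg1 (0.32) and Cd55 (256 and 143 CPM, -0.84) among resting genes. The genes with the most UMIs in each list were Btg1 (0.32), Jund (0.27) and Btg2 (-0.10), Zfp36l1 (-0.38), Zfp36 (-0.15) and Ppp1r15a (-0.12), Cd83 (0.13), Rel (-0.47) and Ccr7 (0.28), Hspa1b (0.04), Hspa1a (0.25) and Hsp90ab1 (-0.12), and Satb1 (0.04) and Foxp1 (-0.25). Past 1.5-fold were 2 of 20 tested other immediate-early genes higher and 0 lower, 1 and 1 of 17 feedback genes, 1 and 2 of 24 activation genes, 0 and 0 of 14 heat-shock genes, and 0 and 3 of 13 resting genes. Of all genes tested in B-like cells, 3.78% were higher and 15.3% lower by that fold.

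Over all kept cells, whose mixture differed between the libraries, Egr3, Atf3 and Dusp1 took the other direction than in B-like cells. B-like cells were 18.3% of kept WT cells and 43.6% of kept Ring1AKO cells, and held 8.25% and 23.9% of all UMIs. They held 63.7% and 77.4% of the Egr3 UMIs, 18.8% and 40.8% of those of Egr1, 21.2% and 50.5% of those of Nr4a1, and 6.46% and 22.9% of those of Fos. Egr3 over all kept cells went from 49.6 to 89.0 CPM (0.84), while it was lower in B-like cells (-0.41). Outside B-like cells it went from 19.6 to 26.5 CPM (0.43), counted over all other kept cells, those outside the 10 classes included. Among these, cells that passed more than 1 gate gave 33.3 and 45.6 CPM of Egr3. Egr1 was even over all kept cells (-0.02) and lower both in B-like cells (-0.44) and outside them (-0.20). Nr4a1 was 0.41 higher over all kept cells, against 0.12 in B-like cells and 0.01 outside them. Over all kept cells 1 of 10 members was past 1.5-fold higher (Egr3) and 1 lower (Atf3, -0.88), where 4.02% and 19.0% of genes were. In mixed counts of this kind, more B-like cells and more Egr3 per cell cannot be told apart.

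Across the 20 levels (10 classes in 2 libraries), which share library, depth and gates, members did not all follow one another. Nr4a1 with Ier2 (Pearson r = 0.79), Nr4a1 with Junb (0.77), Fos with Atf3 (0.71) and Egr1 with Egr3 (0.70) were the most alike pairs, and Jun with Dusp1 (-0.49) and Jun with Junb (-0.43) the least. The 5 genes whose levels were most like the mean of the members, out of 8578 compared, were Fam122a (0.82), Ppp1r15a (0.80), Nfkbid (0.80), Crebl2 (0.77) and Pnpla7 (0.76). Each member was compared instead with the mean of the remaining members, and there Nr4a1 was closest (0.75) and Jun farthest (0.06).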

How the data were processed

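The deposited files are raw, unfiltered UMI counts per gene and barcode for 2 libraries, which the authors made with Cell Ranger and did not normalize. The sources differ on how: the file headers name Cell Ranger 4, the study's methods Cell Ranger 3.0.1 with mm10, and the submitters' processing notes Cell Ranger 6.0.2 with mm39; which one made the counts is not given in the sources used here. The labels give the 10x 3′ kit as version 3 and an age of 8-10 weeks, and the methods version 3.1 and up to 12 weeks. The libraries held 74414511 (WT) and 81862096 UMIs (Ring1AKO).

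Barcodes with at least 1000 UMIs and 500 genes and under 5% mitochondrial UMIs were kept and gated by marker counts (for example at least 3 of 9 B cell markers). Cells passing more than 1 gate were left out, except plasma over B, and no doublet caller was run. UMIs were summed per class and library and divided by the class total (CPM). Intervals are exact Poisson for levels, exact conditional for log2 ratios and exact Clopper-Pearson for shares, at 95%, and cover counting error only. Cells are not replicates, so no p-value was computed. B-like cells were compared with the median of the other 9 classes as log2(CPM + 1), among genes with at least 100 UMIs, and libraries among genes with at least 50 UMIs in the class, with 1.5-fold as the limit. Thinning drew 1000 UMIs per cell with a fixed seed. Cells with an Egr UMI include those of Egr1 or Egr3, which are left out of the lists compared. The computation was tested on simulated counts (Python 3.11.15, numpy 2.4.6, scipy 1.17.1, pandas 2.3.3).

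The members, gene lists and gates were chosen with earlier results of these data known, and the divisions of B-like cells by Egr and Fos were added after levels were seen. Genes named by rule were the members, in each list the 3 genes with the most UMIs in B-like cells and those with the highest and lowest ratio between libraries, the 5 genes most like the members' mean, and Ring1; other list genes named beside the classes or the divisions are examples picked after their values were seen. Alternatives changed the cell filter, mitochondrial limit, gates, denominator, weighting of cells, depth, cell-free RNA and the deepest cells, 1 at a time.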

Additional observations from a re-analysis of the deposited data

Results flagged for a closer look

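Members were also counted in barcodes that no comparison between classes used. In cell-free barcodes (under 100 UMIs each) the summed members gave 6182 CPM in the library labelled WT and 6333 CPM in that labelled Ring1AKO, with Egr3 at 58.1 and 115 CPM and Egr1 at 258 and 270.2 CPM. These Egr3 levels lie below those of B-like cells and above the 49.6 and 89.0 CPM of all kept cells. In kept cells that passed more than 1 gate and were left out of the classes, the summed members gave 4756.5 and 4797 CPM and Egr3 33.3 and 45.6 CPM.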

How the results depend on the processing

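Within B-like cells, each member's ratio between the libraries kept its direction in 9 of 9 alternatives, except Atf3 (8 of 9). Egr1 ran from -0.69 to -0.41, Egr3 from -0.58 to -0.40, Ier2 from 0.28 to 0.39 and Junb from 0.22 to 0.33 (log2). Lowering the filter to 500 UMIs and 200 genes moved no summed value past its interval. Reversed were Egr1 in ILC2-like cells with 1 marker more per gate (0.69) and Egr3 in Treg-like cells after thinning (0.58) and without the 5% deepest cells (0.96). For these and for the sums below the cause was not tested.

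The summed ratio between libraries moved as follows. With 1 marker more per gate it was 0.12 in CD4 T-like, 0.23 in CD8 T-like, 0.28 in ILC2-like, -0.24 in Treg-like, -0.043 in monocyte-like and -0.37 in plasma-like cells. After thinning it was -0.042 in B-like, 0.24 in CD4 T-like, 0.10 in CD8 T-like, 0.17 in ILC2-like, 0.23 in NK-like, 0.043 in Treg-like, 0.46 in dendritic-like, 0.057 in monocyte-like, -0.33 in neutrophil-like and -0.10 in plasma-like cells. As a mean over cells it was -0.036 in B-like, 0.24 in CD4 T-like, 0.11 in CD8 T-like, 0.14 in ILC2-like, 0.17 in NK-like, 0.056 in Treg-like, -0.32 in neutrophil-like and -0.11 in plasma-like cells. Without the deepest cells it was -0.017 in B-like, 0.28 in CD4 T-like, 0.12 in CD8 T-like, 0.13 in ILC2-like, 0.23 in NK-like, -0.11 in Treg-like, -0.032 in monocyte-like and -0.31 in plasma-like cells. Plasma-like cells also gave -0.37 with cell-free RNA subtracted, -0.14 without immunoglobulin genes and -0.26 at the 10% mitochondrial limit, and neutrophil-like cells -0.50 at 2000 UMIs and 1000 genes.

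The summed members in B-like cells over the other classes were, in the WT library, 0.16 with 1 marker more, 0.075 thinned, -0.079 without immunoglobulin genes and 0.16 without the deepest cells, and in the Ring1AKO library 0.076, -0.15, -0.019 and -0.12, and -0.16 as a mean over cells. Activation genes in Ring1AKO cells with an Egr UMI were 0.71 higher at the 10% mitochondrial limit and 0.74 without the deepest cells. Members with few UMIs, such as Egr3 outside B-like cells, are limited by depth. No paired analysis was possible because each group has 1 library.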
